A study of Homo sapiens with 4 samples.

Results

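The 10 genes described here encode ligands of the TGF-beta superfamily (TGFB1, TGFB2, TGFB3, INHBA, BMP2, BMP4 and GDF15), an antagonist (FST) and both inhibitory SMADs (SMAD6 and SMAD7). They were chosen by symbol, with earlier results of these data known, and all 10 were found among the 24424 gene symbols counted in every library. RNA sequencing was done on BEAS-2B cells, an immortalized human bronchial epithelial line labelled wild type throughout, in 4 libraries with 1 library for each condition. Control cells were untreated, LPS cells received lipopolysaccharide of Gram-negative bacteria for 2 hr, and WT PDZ+LPS and mut PDZ+LPS cells received a peptide for 24 hr before the same 2 hr of LPS. WT PDZ is a peptide from the first PDZ domain of the tight junction protein ZO-1 joined to a Tat sequence for cell entry, and mut PDZ has a pair of neighbouring glycines replaced by alanines. No library analysed here received a peptide without LPS.

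TGF-beta, activin and BMP ligands are secreted dimers that bring type I and type II receptor kinases together. The receptors phosphorylate SMAD2 and SMAD3 (TGF-beta and activin) or SMAD1, SMAD5 and SMAD9 (BMP), which enter the nucleus with SMAD4, while SMAD6 and SMAD7 block the receptors and follistatin (FST) binds activin. In airway epithelium the family is known for growth arrest, matrix production and repair after injury, and GDF15 is a stress-induced member that signals through its own receptor, GFRAL, in the brainstem.

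The libraries held 19682929 to 25155647 counts, and dividing them by size factors between 0.851 and 1.15 gave normalized counts. Because every condition is 1 library, differences have no replicate check and are given without p-values. The 95% intervals below are exact binomial (Clopper-Pearson) intervals for ratios and exact Poisson intervals for levels. They compare libraries, not conditions, and cover counting error only, because without molecular identifiers a read is not an independent molecule. The epithelial marker list was present in each library, with 9 of 9 genes at 16 or more normalized counts and a summed level of 75659 to 107436 normalized counts. Of the leukocyte and macrophage list 1 of 10 genes, CD14, reached 16 normalized counts, the summed level ran from 374 to 544, and PTPRC, CD163 and MARCO were at 0 in all 4 libraries. Of the fibroblast list 3 of 9 genes reached that level (PDGFRB, COL1A1 and THY1) with COL3A1, LUM and POSTN at 0, and of the endothelial list 1 of 6 (KDR). The mut PDZ+LPS library stood apart from the others by transcript length. Across 12119 genes (genes are no independent replicates) the Spearman correlation of log2 fold change with transcript length was -0.605 for mut PDZ+LPS/LPS. It was -0.614 for mut PDZ+LPS/WT PDZ+LPS, 0.155 for LPS/Control and 0.0750 for WT PDZ+LPS/LPS. Log2 fold changes of single genes that involve the mutant peptide library are therefore given both as counted and corrected for the length and GC content of the transcripts. Where 4 values of a gene follow each other below, their order is Control, then LPS, then the wild-type and then the mutant peptide library.

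Promoter sequences were available from RefSeq (GRCh38.p14) for 9 of the 10 genes, with 14 windows from 250 bases before to 50 bases after a transcription start, and BMP2 had no entry. Each window was searched on both strands for the NF-kB motif, the AP-1 motif TGANTCA and the SMAD-box CAGAC. Those of GDF15 and FST are shown, because GDF15 had the highest LPS/Control log2 fold change of the genes with enough counts for a call and the FST window was the only one of the 14 that held an NF-kB or an AP-1 match. Capitals mark the matches. GDF15 lies at chr19:18385908-18386207 and FST at chr5:53480379-53480678, both on the plus strand and written 5′ to 3′.
GDF15: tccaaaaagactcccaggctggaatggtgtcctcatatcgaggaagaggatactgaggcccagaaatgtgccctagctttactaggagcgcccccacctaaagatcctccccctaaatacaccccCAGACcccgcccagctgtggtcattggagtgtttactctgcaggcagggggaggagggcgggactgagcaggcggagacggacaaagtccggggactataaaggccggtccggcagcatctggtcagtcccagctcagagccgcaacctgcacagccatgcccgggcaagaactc
FST: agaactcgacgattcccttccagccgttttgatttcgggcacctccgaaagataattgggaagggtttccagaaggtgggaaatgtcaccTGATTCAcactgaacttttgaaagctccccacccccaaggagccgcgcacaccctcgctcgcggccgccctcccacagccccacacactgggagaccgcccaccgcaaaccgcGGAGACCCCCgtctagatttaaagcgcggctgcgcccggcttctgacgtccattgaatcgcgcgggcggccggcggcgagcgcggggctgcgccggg

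In GDF15 the capitals are a SMAD-box CAGAC at -125 from the start. In FST they are an AP-1 match, TGATTCA, at -160 and an NF-kB match, GGAGACCCCC, at -47 on the minus strand, and these do not overlap. SMAD-boxes were found in 9 of the 14 windows, belonging to 6 of the 9 genes (TGFB2, TGFB3, INHBA, BMP4, GDF15 and SMAD7). Over 35116 promoters of the same length, 45.3% held a SMAD-box, 7.71% an AP-1 match and 5.91% an NF-kB match. A match is a description of letters and not a binding site, and its absence says only that the letters are not in the window.

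Of the TGF-beta isoforms, TGFB1 and TGFB2 had many more counts than TGFB3. TGFB1, the widely expressed TGF-beta isoform and a regulator of immune tolerance, had 1627, 1624, 1563 and 1610 counts. TGFB2, an isoform with prominent roles in development and in epithelial to mesenchymal transition, had 878, 1325, 1446 and 869 counts. TGFB3, an isoform known for palate fusion and wound repair, had 130, 225, 165 and 163 counts. TGFB1 was thus nearly level in raw counts, but in normalized counts it ran from 1416 in Control to 1892 in mut PDZ+LPS. TGFB2 and TGFB3 also had their lowest normalized level in Control, at 764 and 113 normalized counts. TGFB2 was highest in WT PDZ+LPS at 1460 normalized counts, and TGFB3 was highest in LPS at 212.

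The activin, BMP and GDF ligands spanned a wider range. INHBA, which encodes the subunit of activin A, had 1, 6, 22 and 14 counts. BMP2, a bone morphogenetic protein known for bone and cartilage formation, had 32, 70, 37 and 52 counts. BMP4, a BMP ligand of lung bud development, had 261, 156, 148 and 166 counts. INHBA was near the counting floor in Control, BMP2 was high in LPS and mut PDZ+LPS, and BMP4 had its highest level in Control, at 227 normalized counts against 147 to 195 in the other libraries. GDF15 had 288, 638, 542 and 757 counts, so that all 3 LPS libraries lay above Control. In normalized counts it was 251, 600.2, 547 and 889.

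The antagonist and the inhibitory SMADs had low counts in each library. FST had 3, 13, 17 and 13 counts. SMAD6, which mainly restrains BMP receptors, had 2, 1, 4 and 2 counts. SMAD7, which recruits ubiquitin ligases to the TGF-beta receptor and is itself a SMAD3 target, had 54, 84, 76 and 48 counts. SMAD6 had no more than 4 counts in any library and SMAD7 was highest in LPS, at 79.0 normalized counts against 47.0 in Control. Averaged over the 4 libraries, 7 of the 10 genes reached 16 normalized counts, and INHBA, FST and SMAD6 did not.

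**Figure D1:**
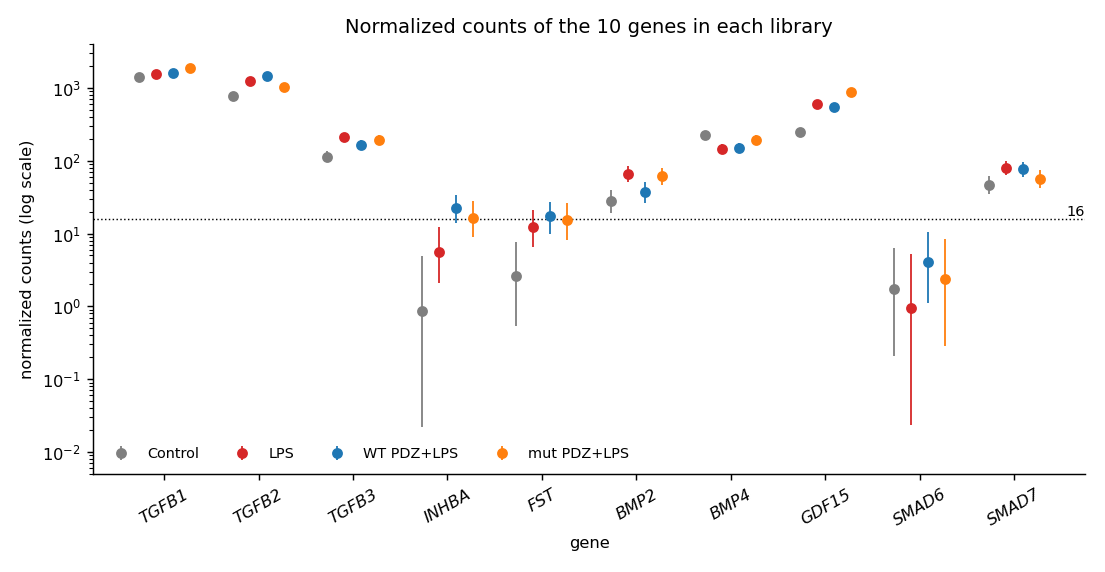
Normalized counts (log scale) of the 10 genes in the 4 libraries, 1 per condition (colours), with points for the values and lines for exact Poisson 95% counting intervals. The dotted line is at 16 normalized counts, and INHBA, FST and SMAD6 lie near or below it while TGFB1 runs from 1416 to 1892.

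Levels were compared between genes only per kilobase, taking for each gene the longest GENCODE 29 transcript that codes for protein. In normalized counts per kb, TGFB1 was the highest of the 10 genes in the Control, LPS and wild-type peptide libraries, at 511, 552 and 569.99, and GDF15 was next, at 209, 500.1 and 456. In LPS the intervals of TGFB1 (525 to 579) and GDF15 (462 to 540) overlapped. In mut PDZ+LPS the order as counted was turned, with GDF15 at 741 and TGFB1 at 683. Their intervals (689 to 796 and 650 to 717) overlapped, and these levels carry the length trend of that library. GDF15, at 1200 nt, has the shortest transcript of the 10. On the log2 scale it stood at 0.57 against LPS as counted, but at -0.0013 once corrected for length and GC content. TGFB1 stood at 0.31 and 0.044, so no change of order is read. TGFB2 followed in all 4 libraries, at 151, 247, 289 and 202 normalized counts per kb. BMP4 and TGFB3 came next, with intervals that overlapped in all libraries but Control. BMP2 and SMAD7 were lower, at 7.73 to 18.3 and 10.6 to 17.8, with overlapping intervals in each library, and FST, INHBA and SMAD6 were at the bottom at 6.76 or lower.

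LPS/Control asks which of these genes differ between cells given LPS for 2 hr and untreated cells. A gene was called when it differed at least 2-fold with at least 16 normalized counts in at least one of the 2 libraries, and 7 of the 10 members met the count rule. GDF15 and BMP2 were called higher and no member was called lower. Thus 2 of 7 were higher where the same rule called 3.46% of 13277 genes higher, and 0 of 7 lower where it called 1.41%. The members were chosen with earlier results of these data known. These counts, and the interval counts and median below, therefore only describe these libraries. GDF15 was 2.39-fold higher (log2 fold change 1.26, 95% interval of the ratio 1.06 to 1.47 on the log2 scale) and BMP2 was 2.36-fold higher (1.21, 0.62 to 1.89). In RNA from a whole culture, more cells with a transcript and more RNA per cell cannot be told apart.

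The other members with enough counts had smaller differences, and each interval lay on one side of 0. TGFB3 was higher by 0.90 on the log2 scale (0.59 to 1.23) and TGFB2 by 0.71 (0.58 to 0.83). SMAD7 was higher by 0.74 (0.24 to 1.27). BMP4 was the member with a lower value, at -0.63 (-0.93 to -0.34). TGFB1 had a difference of 0.11 (0.0094 to 0.21), and with total-count scaling it was -0.022, so no direction is read for it. As counted, and with TGFB1 among them, the intervals of 6 members lay above 0 and that of 1 below it, where this held for 25.9% (higher) and 21.3% (lower) of the genes tested.

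INHBA and FST did not reach 16 normalized counts in either library of LPS/Control. Their ratios were 6.49 for INHBA (0.787 to 298.3; 6 counts against 1) and 4.68 for FST (1.29 to 25.6; 13 counts against 3). For INHBA the interval includes a ratio of 1, so that a difference was not detectable at this depth. SMAD6 had 1 and 2 counts and no fold is given. Over the 7 members that met the count rule the median log2 fold change was 0.74, against -0.0023 over all genes that met it.

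**Figure D2:**
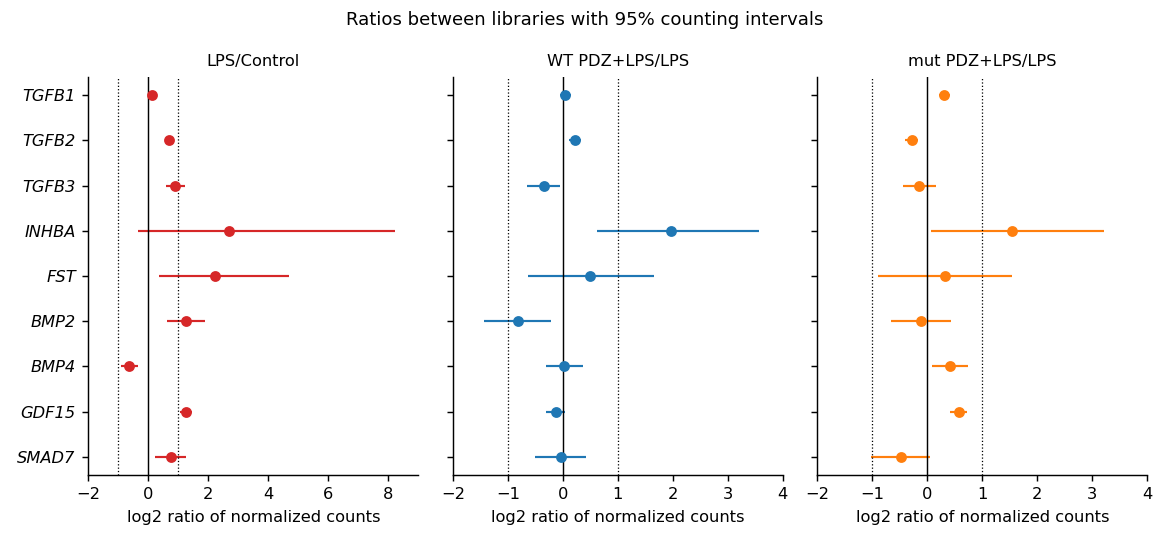
Log2 ratios of normalized counts for 9 genes (SMAD6 left out), one panel each for LPS against Control and for the wild-type and mutant peptides against LPS, with exact binomial 95% counting intervals as lines and 2-fold differences as dotted lines. In LPS/Control the point of BMP4 (-0.63) lies below 0 and those of the other 8 genes above it, and the intervals of INHBA and FST are the widest in that panel.

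WT PDZ+LPS/LPS asks how the genes differ in LPS-treated cells that had first received the wild-type peptide. Of the 10 members 9 met the count rule, and all of these but INHBA differed by less than 2-fold. The gene called was INHBA, with 1 of 9 higher (where 0.635% of 13236 genes were called higher) and 0 of 9 lower (where 0.733% were). INHBA met the rule only through its WT PDZ+LPS level of 22.2 normalized counts, so a call could only be in that direction, and the count is no support. Its ratio was 3.94 (1.55 to 11.9) on 22 counts against 6.

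Below 2-fold, BMP2 had a value of -0.80 (-1.43 to -0.22) on 37 counts against 70, and TGFB3 of -0.34 (-0.64 to -0.049) on 165 against 225. TGFB2 was higher by 0.23 (0.12 to 0.34). For TGFB1 (0.047, -0.054 to 0.15), GDF15 (-0.13, -0.30 to 0.034), BMP4 (0.026, -0.31 to 0.36), SMAD7 (-0.042, -0.51 to 0.42) and FST (log2 ratio 0.49, -0.64 to 1.65) no difference was detectable at this depth. Intervals lay above 0 for 2 members, INHBA and TGFB2, and below it for 2, where 12.1% and 10.2% of all genes tested did so. INHBA and FST met the rule only through WT PDZ+LPS. The median over the 9 members was 0.026, and 0.0076 over all genes that met the rule. Over the members that averaged 16 or more normalized counts, which leaves out INHBA and FST, the median was -0.042, against 0.0075 over all such genes.

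Reads of TGFB2 can be shared with TGFB2-OT1, which GENCODE 29 lists as an overlapping noncoding RNA on the same strand. TGFB2-OT1 had 18, 56, 0 and 161 counts. Its counts were thus uneven between the peptide libraries, and how reads were assigned between these genes was not tested. With the reads of both added, TGFB2 differed by 0.74 (0.61 to 0.86) in LPS/Control and by 0.17 (0.061 to 0.28) with the wild-type peptide, and was at -0.10 (-0.22 to 0.015) with the mutant, both relative to LPS. The last interval includes 0, whereas that of TGFB2 alone did not.

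The same comparison with the mutant peptide, mut PDZ+LPS/LPS, gave values that changed with the correction for transcript length. As counted, GDF15 was higher by 0.57 (0.41 to 0.72), BMP4 by 0.41 (0.086 to 0.74) and TGFB1 by 0.31 (0.21 to 0.41), while TGFB2 was at -0.29 (-0.41 to -0.16). After the correction these were -0.0013 for GDF15, 0.21 for BMP4, 0.044 for TGFB1 and -0.0076 for TGFB2. The transcripts of GDF15 and BMP4, at 1200 and 1917 nt, are the shortest of the 10 and that of TGFB2, at 5053 nt, is longer than all but INHBA. TGFB3 was at -0.14 as counted (-0.44 to 0.15) and -0.21 after the correction, and SMAD7 at -0.48 (-1.03 to 0.042) and -0.39. FST, with 13 counts in each library, was at 0.30 as counted and 0.31 after the correction (interval of the ratio -0.91 to 1.55). None of these differences was detectable at this depth. BMP2 was at -0.11 as counted and 0.010 after the correction.

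INHBA was called in mut PDZ+LPS/LPS also, on 14 counts against 6 (log2 ratio 1.54, 0.073 to 3.21). This was 1 of the 8 members that met the count rule, where 2.05% of 13378 genes were called higher, and 0 of 8 were lower, where 1.9% were. INHBA again met the rule only through the peptide library, at 16.4 normalized counts, close to the limit of 16. Its log2 fold change with 1 added normalized count was 1.39 as counted and 1.74 after the correction. Over the 8 members the median was 0.10 as counted and 0.0045 after the correction, against -0.017 and -0.0024 over all genes that met the rule. The sign of the value as counted rested on INHBA. Over the members that averaged 16 or more normalized counts, which leaves out INHBA, the median as counted was -0.11, against -0.023 over all such genes. Intervals lay above 0 for 4 of the 8 members, INHBA among them, and below it for 1, where this held for 28.8% and 33.7% of all genes tested.

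**Figure D3:**
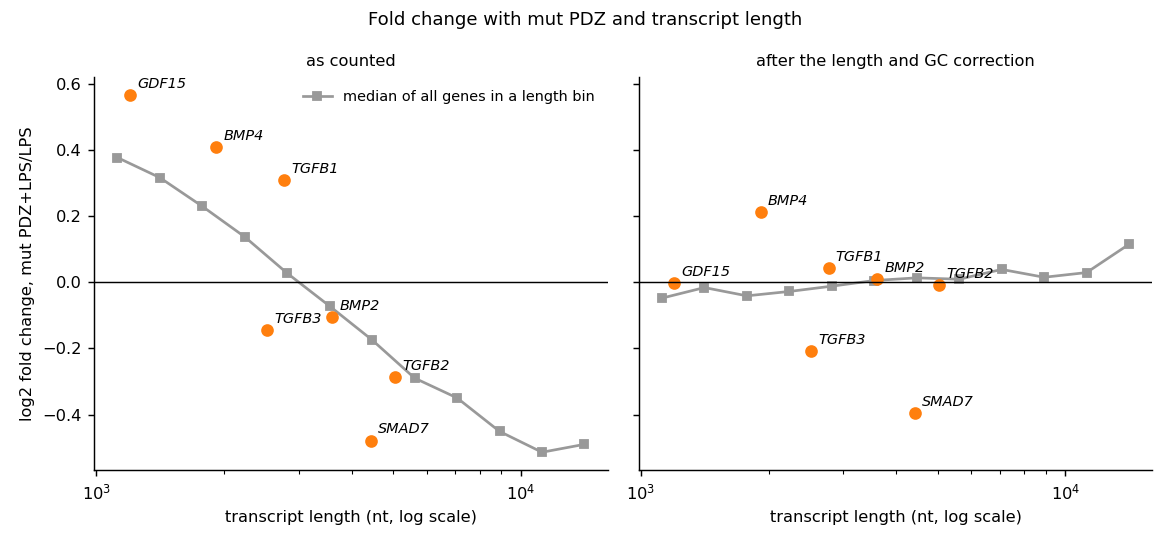
Log2 fold change of mut PDZ+LPS relative to LPS against transcript length (nt, log scale), as counted (left) and after the length and GC correction (right), for the 7 members that averaged 16 or more normalized counts (points) and the median of all genes in each length bin (squares, line). As counted, the bin medians go from 0.38 at the shortest transcripts to -0.49 at the longest, and after the correction GDF15, TGFB1, BMP2 and TGFB2 lie within 0.05 of 0.

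Between the peptides at matched times, mut PDZ+LPS/WT PDZ+LPS, no member was called: 0 of 9 higher, where 2.12% of 13372 genes were, and 0 of 9 lower, where 2.14% were. At these background shares a count of 0 is not a result about the members. GDF15 was higher with mut PDZ by 0.70 (0.54 to 0.86) as counted and 0.12 after the correction, and TGFB1 by 0.26 (0.16 to 0.36) and -0.0077. TGFB2 was at -0.52 (-0.64 to -0.39) as counted, -0.21 after the correction and -0.27 with the reads of TGFB2-OT1. BMP2 was higher by 0.69 (0.074 to 1.36) as counted and by 0.80 after the correction, on 52 counts against 37. BMP4 differed by 0.38 (0.056 to 0.71) and 0.17. Of the differences between the peptides, BMP2 was thus larger after the correction and GDF15, TGFB1, TGFB2 and BMP4 were smaller. For TGFB3 (0.20, -0.12 to 0.52), INHBA (-0.41, -1.51 to 0.60), FST (-0.16, -1.33 to 0.96) and SMAD7 (-0.44, -0.997 to 0.096) the interval of the ratio as counted includes 0. Their corrected log2 fold changes were 0.12, -0.028, -0.16 and -0.36 in the same order. An interval that includes 0 does not show that the peptides act alike. Intervals lay above 0 for 4 of the 9 members and below it for 1, where this held for 29.4% and 34% of all genes tested.

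The other genes of the pathway were taken from 9 lists of 128 symbols, of which 127 were in the table and 78 averaged 16 or more normalized counts. These lists were also chosen with earlier results of these data known, so counts from them only describe these libraries. The lists cover other ligands, receptors and coreceptors, signal-transducing SMADs, other antagonists, latency and activation, nuclear and ubiquitin regulators, target genes of TGF-beta and of BMP, and stress regulators known to induce GDF15. In LPS/Control 10 of 79 were at least 2-fold higher and 1 lower, where 3.46% and 1.41% of all genes were. The 10 higher were counted under each scaling, but the number lower was 4 with total-count scaling, 2 with upper-quartile scaling and 0 with a pseudocount of 5. The median log2 fold change of the 79 was 0.15. Against LPS, the wild-type peptide library had 0 of 79 called higher or lower (background 0.635% and 0.733%), and the mutant one had 1 of 81 higher and 1 lower (2.05% and 1.9%).

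The genes called higher in LPS/Control included SMAD3, the receptor-activated SMAD of TGF-beta and activin, with 4016, 12489, 10418 and 8025 counts (3.36-fold in LPS/Control, 3.24 to 3.48; 1.75 on the log2 scale). Among the 6 signal-transducing SMADs it was the one called, where 3.46% of all genes were called higher. The others ran from -0.72 (SMAD9) to 0.80 (SMAD1). ITGB8, the integrin chain that releases TGF-beta from its latent complex, had 1575, 9011, 7808 and 5113 counts (log2 fold change 2.63, 2.55 to 2.71). As counted, both genes were lowest in Control and highest in LPS, but their levels in mut PDZ+LPS carry the length trend of that library. In mut PDZ+LPS/LPS SMAD3 was at -0.32 as counted and 0.042 after the correction. No order of the LPS and mutant peptide libraries is therefore read for SMAD3.

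Of 14 TGF-beta target genes 2 were called higher, where 3.46% of all genes were. CTGF, a matricellular protein, had 12849, 32801, 27546 and 22535 counts (1.46, 1.43 to 1.49). It also responds to other pathways, and over the 14 genes the median was 0.55 in LPS/Control, -0.027 for the wild-type peptide against LPS and -0.11 for the mutant (0.036 after the correction). Over all genes that met the count rule the medians were -0.0023, 0.0076 and -0.017 (-0.0024 after the correction) in the same order.

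Of the BMP target genes 1 of the 4 that met the count rule was called higher, where 3.46% of all genes were. ID2, an inhibitor of basic helix-loop-helix factors, had 26, 99, 90 and 130 counts (1.99; interval of the ratio 1.41 to 2.72). ID1, a gene of the same family that was chosen after its values were seen, had 2702, 1308, 1186 and 1557 counts and a value of -0.93 in LPS/Control, short of 2-fold, but -1.07 with total-count scaling. ID2 was thus lowest and ID1 highest in Control.

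Regulators were called as well. NEDD4L, a ubiquitin ligase that marks activated SMAD2 and SMAD3, had 2414, 6643, 5801 and 3778 counts (1.57, 1.51 to 1.64), and TGIF1, a corepressor of SMAD targets, had 794, 1864, 1535 and 1880 (1.34, 1.22 to 1.47). FSTL3, an activin and myostatin binding protein related to FST, had 1377, 2870, 2282 and 2135 counts (1.17, 1.08 to 1.27). All of these were lowest in Control. Of the stress regulators 2 of 10 were called: ATF3, a stress transcription factor, had 91, 213, 184 and 166 counts (1.33; 0.98 to 1.71) and CHAC1, a glutathione-degrading target of ATF4, had 57, 161, 118 and 145 (1.59; 1.17 to 2.07). The gene called lower was GDF6, a BMP-type ligand, with 228, 103, 119 and 94 counts (-1.03; -1.38 to -0.69), and with a pseudocount of 5 it was at -0.998, short of the call.

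Of the receptors and coreceptors 12 met the count rule and 0 were called in any of the comparisons. Between 0.635% and 3.46% of all genes were called in each direction, so a count of 0 is not a result about the receptors. In LPS/Control they ran from -0.91 (RGMA, a BMP coreceptor) to 0.53 (RGMB), and with total-count scaling RGMA was at -1.04 and was called lower. In mut PDZ+LPS/LPS their median was -0.33 as counted and -0.013 after the correction. TGFBR2, the type II receptor of TGF-beta, had 21029, 18584, 17695 and 9728 counts, with a value in mut PDZ+LPS/LPS of -0.61 as counted and -0.34 after the correction. The signal-transducing SMADs had a median of -0.34 in that comparison, and -0.0087 after the correction.

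In mut PDZ+LPS/LPS BMP8B, a BMP ligand, had 265 counts in LPS and 633 in mut PDZ+LPS (1.57 as counted, 1.75 after the correction). It has a near-identical copy, BMP8A, so the assignment of its reads is uncertain and was not tested. BMP8A had 110 counts in LPS and 99 in mut PDZ+LPS (0.17 as counted, -0.45 after the correction). GDF7, another BMP-type ligand, had 26 and 6 counts (-1.66; -1.19 after the correction), and it met the count rule only through the LPS library, so that its call could only be lower. Between the peptides, CHRDL2, a BMP antagonist, was called along with BMP8B, at 16 counts with the mutant against 6 with the wild type (1.49; 1.09 after the correction). It met the count rule only through the mutant peptide library, so its call could only be higher. Of the 80 pathway genes tested there, 2 were higher and 0 lower, where 2.12% and 2.14% of all genes were.

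**Figure D4:**
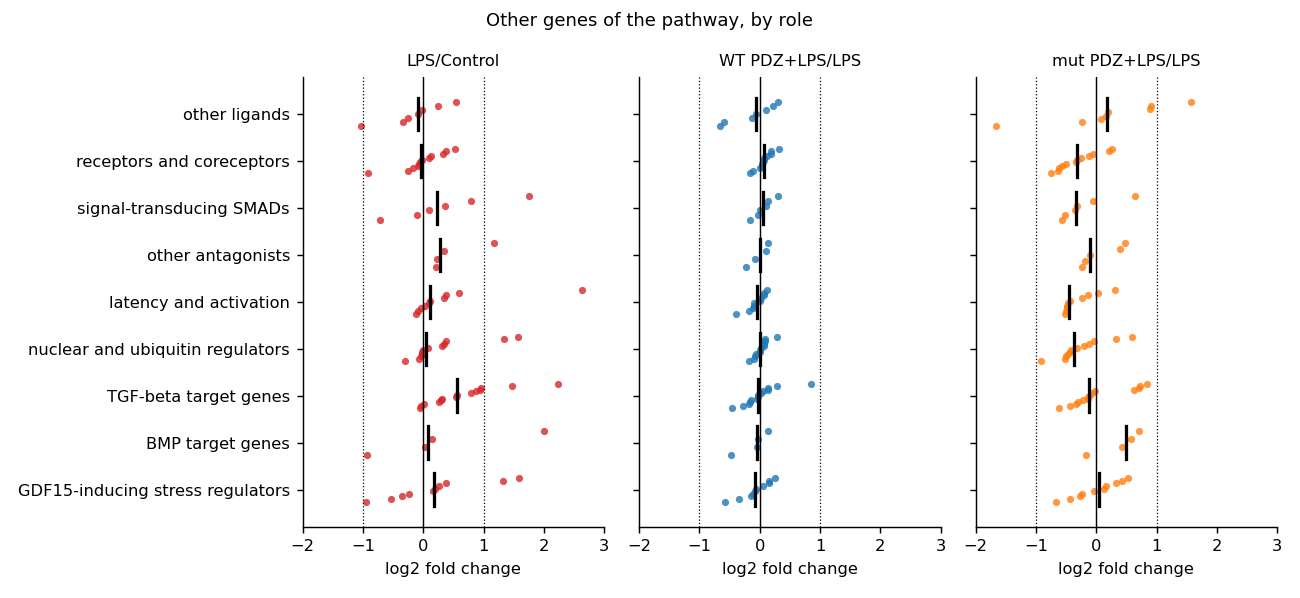
Log2 fold changes of the other pathway genes that met the count rule, by role, for LPS against Control (left) and the wild-type (middle) and mutant (right) peptides against LPS, with each point a gene, the bar the median of its list and dotted lines at 2-fold. The points of the middle panel lie within the dotted lines, and ITGB8 (2.63) reaches farthest right in the first.

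Of the 10 genes, GDF15 was the one that averaged 64 or more normalized counts and spread at least 2-fold over the 4 libraries, and the genes nearest to it in pattern were sought among 11438 genes. The measure was the Euclidean distance of log2 normalized counts, centred on each gene's mean over the 4 libraries. IER5, an immediate early gene, was nearest at 0.102, followed by METRNL, a secreted protein, at 0.123, and SLPI, a protease inhibitor of airway secretions, at 0.153. IER5 had 1276, 3055, 2914 and 4284 normalized counts. The distance was under 0.25 for 16 genes, and with 4 libraries, of which mut PDZ+LPS carries the length trend, it is a description of these libraries.

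By GENCODE 29, TGFB1 lies on chromosome 19 with CCDC97, HNRNPUL1 and TMEM91 overlapping on the other strand, and TGFB3 on chromosome 14 with IFT43 overlapping. HNRNPUL1 had 9880 to 14535 counts, more than TGFB1. The libraries were made with a directional kit, but whether the counting used the strand is not given in the sources used here, so reads of TGFB1 and TGFB3 may include those of their partners. INHBA-AS1, antisense to INHBA, had 1 count in Control and 0 in the other libraries.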

How the data were processed

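The 10 members and the pathway, marker and motif lists were chosen with earlier results of these data known. Reads trimmed by the authors were mapped with TopHat to hg19 per the labels, and the deposited values are raw counts by gene symbol for 1 library per condition; the counting tool, annotation and strand setting are not given in the sources used here. Size factors came from the median-of-ratios method of DESeq2 1.42.0 (R 4.3.3), and TMM from edgeR 4.0.16; no model test was fitted. A log2 fold change adds 1 normalized count, and a log2 ratio adds none. No fold is given when both libraries hold 3 counts or fewer. For the correction, lowess trends (span 0.3) over length and then GC content were subtracted, using the longest coding transcript of GENCODE 29, matched for 12119 of the 13072 genes (92.7%) that averaged 16 or more normalized counts, older symbols being matched through RefSeq synonyms. Hg19 coordinates were not mixed with GRCh38 promoters.

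Genes were named by rule: all members, the pathway genes called in LPS/Control, WT PDZ+LPS/LPS or mut PDZ+LPS/LPS, receptors and SMADs by range, and the 3 nearest profiles of members that averaged 64 or more normalized counts with a spread of at least 2-fold. A result for 1 of these pathway genes is not reported here. TGFBR2 and CHRDL2 were added after their values were seen. Alternatives were scaling by TMM, upper quartile or total count, a pseudocount of 5, other expression rules (none, 64) and fold thresholds (1.5, 3), the correction, and TGFB2-OT1 reads. The steps were tested on simulated data. Python 3.11.15 was used with scipy 1.17.1, statsmodels 0.14.6, pandas 2.3.3, numpy 2.4.6 and matplotlib 3.10.9.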

Additional observations from a re-analysis of the deposited data

Results flagged for a closer look

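As counted, TGFB2 lay on opposite sides of LPS with the 2 peptides. Relative to LPS, its log2 fold change was 0.23 with WT PDZ and -0.29 with mut PDZ, with 1446 counts in WT PDZ+LPS, 1325 in LPS and 869 in mut PDZ+LPS. Each peptide has 1 library, so the difference was not tested. After the length and GC correction the values were 0.20 and -0.0076, and with the reads of TGFB2-OT1 they were 0.17 and -0.10. The interval of the last value, -0.22 to 0.015, includes 0. The part of transcript length or of read assignment in this difference was not tested.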

How the results depend on the processing

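No paired analysis was possible because each condition had 1 library, and leaving out a replicate was not possible for the same reason. Scaling by TMM, upper quartile or total count, a pseudocount of 5 and the length and GC correction left all 8 counts of called genes, both directions together, within 1.5 times, and no called value of a member changed sign. By direction, the pathway genes in LPS/Control were 10 higher and 1 lower, and became 10 and 4 with total-count scaling (RGMA, ID1 and EGR1, named after their values were seen, joined GDF6), 10 and 2 with upper-quartile scaling (EGR1 joined) and 10 and 0 with a pseudocount of 5. The expression rule and the fold threshold moved them, by their own construction. Against 2 members called in LPS/Control there were 4 with no expression rule, 6 at 1.5-fold and 0 at 3-fold. Against 1 in WT PDZ+LPS/LPS there were 2 with no rule, 0 with a rule of 64 and 2 at 1.5-fold. Against 1 in mut PDZ+LPS/LPS there were 0 with a rule of 64 and 0 at 3-fold, and against 0 between the peptides there were 2 at 1.5-fold. Of the pathway genes, 11 in LPS/Control became 20 with no rule, 21 at 1.5-fold and 5 at 3-fold. In WT PDZ+LPS/LPS 0 became 11 with no rule and 3 at 1.5-fold. In mut PDZ+LPS/LPS 2 became 17 with no rule, 1 with a rule of 64, 17 at 1.5-fold and 1 at 3-fold. Between the peptides 2 became 16 with no rule, 1 with a rule of 64, 16 at 1.5-fold and 0 at 3-fold. Of 38 log2 fold changes of members, 2 left their counting interval with total-count scaling (TGFB1 at -0.022 and TGFB2 at 0.57 in LPS/Control) and 6 with the correction, those of TGFB1, TGFB2 and GDF15 in both comparisons of mut PDZ+LPS with an LPS library. Adding the reads of TGFB2-OT1 was chosen after seeing the data and moved TGFB2 to -0.10 for mut PDZ+LPS/LPS and to -0.27 between the peptides. Total-count scaling moved the LPS/Control median over every gene that averaged 16 or more normalized counts to -0.13, and 460 higher and 187 lower genes became 388 and 274. With upper-quartile scaling 274 higher and 254 lower genes in mut PDZ+LPS/LPS became 324 and 201, and 284 and 286 between the peptides became 345 and 206. Among the 12343 genes with a transcript length, 182 higher and 223 lower as counted in mut PDZ+LPS/LPS became 151 and 116 with the correction. Between the peptides, 193 and 248 of 12333 became 153 and 108. Depth limited INHBA, FST and SMAD6, whose 22 counts or fewer gave wide intervals.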
